A study of Homo sapiens with 45 samples.

Results

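The TMED genes encode the p24 proteins, small type I membrane proteins that cycle between the endoplasmic reticulum and the Golgi apparatus. They are carried forward in COPII-coated vesicles and back in COPI-coated vesicles, form hetero-oligomers that hold a member of each subfamily, and act as cargo receptors for proteins with a glycosylphosphatidylinositol (GPI) anchor and for WNT ligands. The members covered here fall into an alpha subfamily (TMED4 and TMED9) and a beta subfamily (TMED2). The rest belong to a gamma subfamily (TMED1, TMED3, TMED5 and TMED7) and a delta subfamily (TMED10). These 8 genes are described here out of 23045 rows in the deposited tables. They were chosen by name, with earlier results of the same counts known, so their differences between groups are given as descriptions without a test.

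The cells were 45 single H1 human embryonic stem cells of passage 40, an established line, each deposited as its own sample and sequenced after Smart-seq2 cDNA synthesis. Live cells, which exclude the dye DAPI, and fixed cells, which take it up, were each prepared by FRISCR (FRSCR in the labels), a method for recovering RNA from fixed single cells, or by lysis in Triton. The 4 groups held 15 live FRISCR cells, 12 fixed FRISCR cells, 11 live Triton cells and 7 fixed Triton cells. A code in the titles also divides every group into 2 sets, called library sets here. The labels do not say what the code stands for. No separate cultures are named in the labels, so each group counted as 1 sample, no p-value was computed, and the 95% exact binomial intervals below cover counting error only.

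Totals ran from 3388417 to 6594043 counts per cell. With each cell thinned to 1000000 counts, a median of 9070 genes had a count in live FRISCR cells, 8918.5 in fixed FRISCR cells, 9670 in live Triton cells and 5071 in fixed Triton cells. POU5F1, a defining factor of pluripotency, had counts in all 45 cells. All 8 pluripotency markers listed had a median of at least 10 TPM (transcripts scaled to a total of 1000000 per cell, which allows for length) in the first 3 groups, against 6 of 8 in fixed Triton cells. Of 12 markers of other cell types, 11 had a median of 0 in each group, and the summed level of the 12 lay between 0 and 76.2 TPM per cell. The fixed Triton cells therefore stood apart before any TMED gene was considered, and the results that rest on them are given beside that of the other groups.

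Short stretches of 4 TMED promoters are shown because TMED2 and TMED10 are the pair whose levels ran most closely together from cell to cell, and both promoters hold the letters ACGTGG. Promoter entries from RefSeq (GRCh38.p14, from 250 bases before to 50 bases after each gene start) were matched by symbol for 6 of the 8 genes. The search used ACGTGG on both strands, where it reads CCACGT on the other strand, and was chosen after the promoter letters had been seen. As background, these letters are a part of longer elements read by the unfolded-protein-response factors XBP1 and ATF6. The longer elements were not searched for, so a match does not point to these factors. Each line is written 5′ to 3′ on the strand of the gene, with the match in capitals and 10 bases on either side.
TMED2: gcctccctttACGTGGcagctgcggg
TMED10: gaggtgagtcACGTGGgtccccccgg
TMED7: tcgcgggcttCCACGTacgcactcca
TMED3: tccgctggtgCCACGTctatcccctt
The TMED2 stretch is chr12:123584447-123584472 on the plus strand, and its match begins at position -95 from the gene start. The TMED10 stretch is chr14:75176626-75176651 on the minus strand, with the match at -29. The TMED7 stretch is chr5:115626117-115626142 on the minus strand, with the match at -96, and the TMED3 stretch is chr15:79311131-79311156 on the plus strand, with the match at 29 bases after the start. TMED1 and TMED5 had a promoter entry without these letters. The letters were present in 9.72% of the 35116 promoter entries, and a match is a description of sequence rather than of binding.

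TMED2, the single beta member, was the most abundant family member per transcript length in every group by median TPM. In live FRISCR cells its median was 503 TPM (lowest 186, highest 847). TMED9 followed at 162 TPM, TMED10 at 131, TMED3 at 97.8, TMED1 at 75.1, TMED4 at 49.5, TMED7 at 44.5 and TMED5 at 7.66. TMED2 exceeded TMED9 within 13 of the 15 cells, and TMED7 exceeded TMED5 within 14. Between these ends the neighbours could not be ordered beyond the spread of cells: TMED9 exceeded TMED10 in 8 of 15 cells, TMED10 exceeded TMED3 in 9, TMED3 exceeded TMED1 in 8, TMED1 exceeded TMED4 in 8 and TMED4 exceeded TMED7 in 10. The fixed FRISCR cells had the same order of medians, from 459 TPM for TMED2 to 5.00 for TMED5. In fixed Triton cells the first place was not separated from the next, since TMED2 (median 66.2 TPM) exceeded TMED3 (57.7 TPM) in 4 of 7 cells.

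Summed over the 8 genes, the family reached a median of 1162 TPM in live FRISCR cells, 1021 in fixed FRISCR cells, 946 in live Triton cells and 291 in fixed Triton cells. TMED2 made up a median of 44.6%, 44.0% and 46.4% of that sum in the first 3 groups. The gamma members together made up 20.2%, 22.1% and 23.2%. The alpha members made up 22.6% and 23.6% in both FRISCR groups and 14.8% in live Triton cells, and the delta member TMED10 made up 12.6%, 9.42% and 15.9%. These shares did not hold in fixed Triton cells. There the median was 17.4% for TMED2 (6.62% to 61.4% in single cells), 60.2% for the gamma members, 0% for the alpha members and 0.77% for TMED10. In live Triton cells the order of medians was TMED2 at 451 TPM, TMED10 at 173, TMED1 at 92.8, TMED9 at 87.9, TMED3 at 86.1, TMED4 at 45.2, TMED7 at 25.9 and TMED5 at 9.95. TMED9 was not separated from its neighbours there, since TMED1 exceeded it in 6 of 11 cells and it exceeded TMED3 in 4. The place also pools unlike sets: the TMED9 median was 0 TPM in set 1 and 120 TPM in set 2, where TMED10 had 117.

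**Figure D1:**
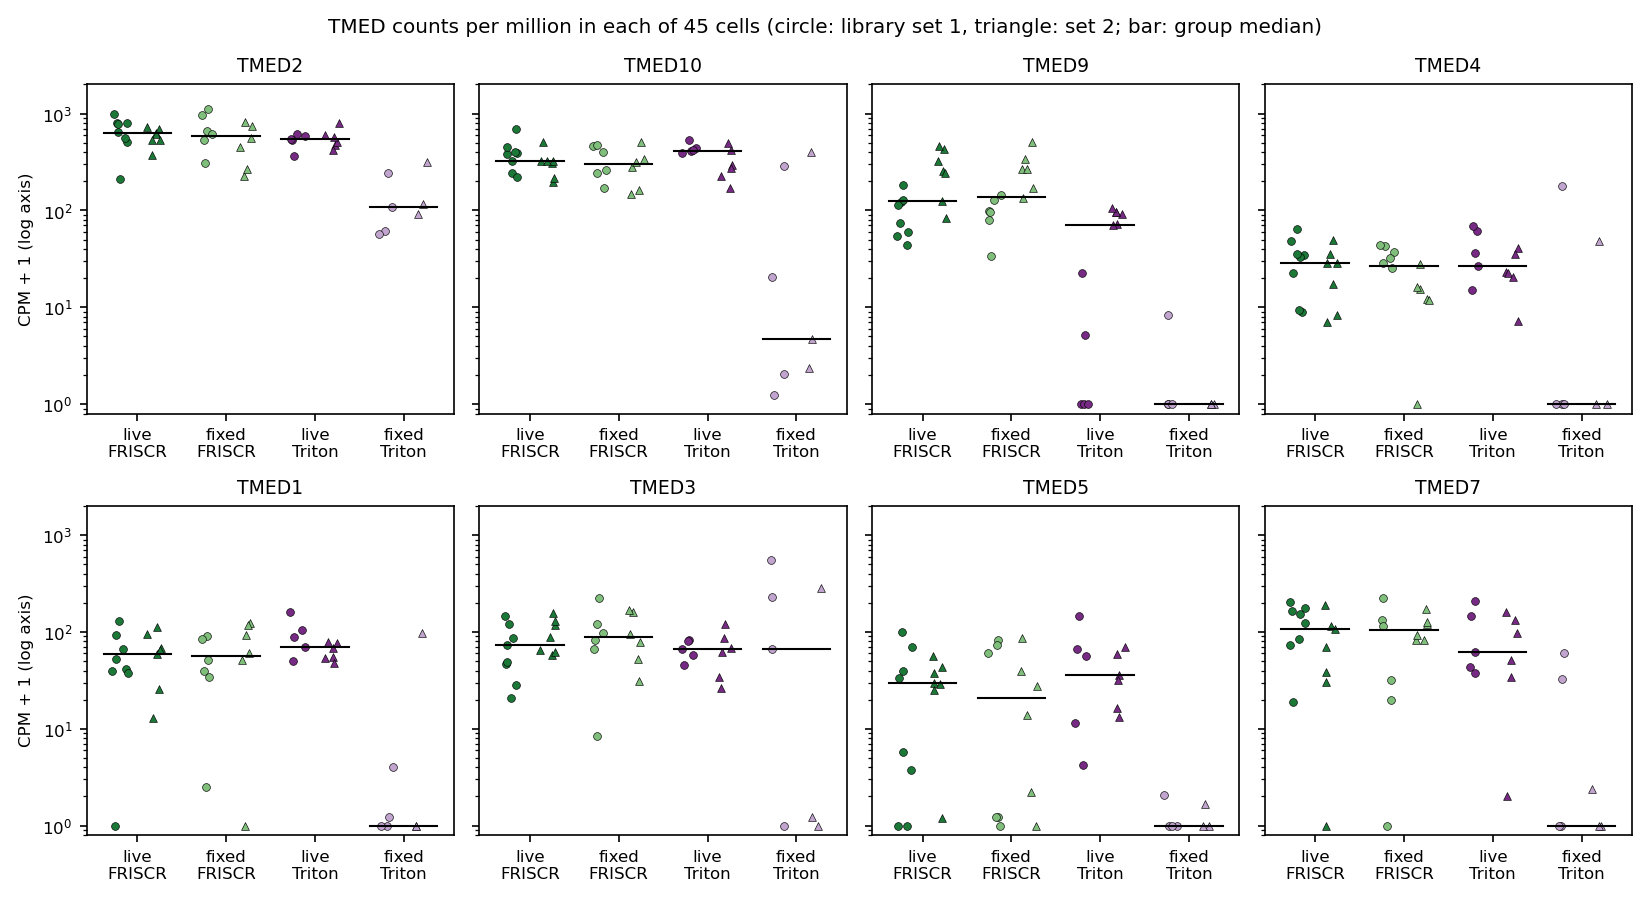
CPM (counts scaled to a total of 1000000 per cell) plus 1 on a log axis for the 8 TMED genes in each of 45 cells, by group, with library set 1 as circles, set 2 as triangles and the group median as a bar. TMED2 lies above 200 CPM in each cell of the first 3 groups, whereas TMED9 is at 0 to 21.6 CPM in the set 1 cells of live Triton and at 0 to 7.38 CPM in fixed Triton cells.

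With both library sets pooled, each TMED gene in fixed FRISCR cells was within 2-fold of its level in live FRISCR cells. All 8 passed the filter of 20 CPM in either group, and 0 of 8 differed more than 2-fold between fixed and live FRISCR cells, where 3.34% of 7518 genes were more than 2-fold higher and 7.69% more than 2-fold lower. A set of 8 genes would hold few such genes at that share. The median log2 ratio was -0.05 for the 8 genes and -0.02 for all genes. Summed TMED2 was 606 CPM after fixation and 635 CPM without it, a ratio of 0.954 (interval 0.941 to 0.968), and single cells ranged from 224 to 1108 CPM (median 587) and from 209 to 993 CPM (median 625). TMED10, the delta member that pairs with TMED2 in the p24 complex, was 318 CPM against 358 CPM, a log2 ratio of -0.17. For both genes the cells of the 2 groups overlapped widely.

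The alpha member TMED9 was 190 CPM in fixed and 188 CPM in live FRISCR cells, a ratio of 1.01 (0.983 to 1.03). TMED4, its alpha partner, was 23.0 against 28.0 CPM (log2 ratio -0.28). Among the gamma members, TMED3 had a log2 ratio of 0.28, TMED1 of 0.01, TMED5 of -0.04 and TMED7 of -0.09. Ranges overlapped for each of the 8 genes with both sets pooled. TMED7 went opposite ways in the sets, with log2 ratios of -0.61 in set 1 and 0.45 in set 2. TMED3 had 0.51 in set 1 and 0.08 in set 2. Within library set 2, TMED4 passed the 2-fold mark, at 12.2 CPM after fixation against 24.8 CPM without it (log2 ratio -1.02, where 13.1% of genes were more than 2-fold lower), and within set 1 it was 33.9 against 30.9 CPM (0.13).

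Between the live groups, TMED9 was the member that differed by preparation. Its cells ranged from 43.2 to 465 CPM (median 125) with FRISCR and from 0 to 106 CPM (median 70.0) with Triton. The summed level was 188 against 50.1 CPM, 3.76-fold higher with FRISCR (3.61 to 3.91). Of 8 members, 1 was more than 2-fold higher and 0 were more than 2-fold lower, where 6.57% and 3.14% of 7447 genes were. The other 7 lay between log2 ratios of -0.50 (TMED5) and 0.37 (TMED3), and the median was 0.10 for the members and 0.10 for all genes.

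The TMED9 difference was not the same in both library sets. In set 1 the 5 live Triton cells had 0, 4.14, 21.6, 0 and 0 CPM, and the 8 live FRISCR cells had 59.4, 73.8, 183, 53.6, 121, 127, 112 and 43.2 CPM. Every FRISCR cell of that set was thus above every Triton cell, as for 0.46% of genes, and the summed level was 20.1-fold higher (16.8 to 24.2). In set 2 the 6 Triton cells had 90.4, 94.6, 72.1, 95.3, 106 and 70.0 CPM, and the 7 FRISCR cells had 326, 432, 257, 465, 83.4, 125 and 241 CPM. There the ranges overlapped and the ratio was 3.27 (3.14 to 3.42). By the median of single cells plus 1 CPM in place of the sum, with both sets together, the difference stayed below 2-fold.

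Set 2 was above set 1 for TMED9 in the FRISCR groups as well. The ratio of set 2 to set 1 was 2.97 (2.86 to 3.09) in live FRISCR cells, 2.87 (2.75 to 3.01) in fixed FRISCR cells and 18.2 (15.2 to 21.9) in live Triton cells. Set 2 levels more than 2-fold higher were found for 8.96%, 12.6% and 9.45% of all genes in these groups, and more than 2-fold lower levels for 11.7%, 14.3% and 12.8%. In live Triton cells every set 2 cell was above every set 1 cell, as for 0.85% of genes, and the ratio held rank 46 of 7408 genes. TMED4, the other alpha member, went the opposite way in fixed FRISCR cells, at 12.2 CPM in set 2 against 33.9 CPM in set 1, and was 23.6 against 42.2 CPM in live Triton cells. The remaining members were within 2-fold between sets in these 3 groups. This comparison of sets was added after the data had been seen, and the labels do not say what a set is beyond its code.

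GC content moved with the sets in the FRISCR cells. TMED9 (57.0% GC in its longest protein-coding GENCODE 29 transcript) lay in the highest of 5 GC bins, where the median log2 ratio of set 2 to set 1 was 0.29 in live FRISCR cells against -0.30 in the lowest bin. TMED1, with 60.9% GC in the same bin, had log2 ratios of 0.21 in live FRISCR cells and -0.54 in live Triton cells. In live Triton cells the medians of the lowest and the highest bin were -0.04 and -0.11. The part of GC content in the TMED9 difference was not tested.

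The genes whose level was most like that of TMED9 over the 45 cells were PHF5A, a splicing factor subunit, with Pearson r = 0.84 of log2(CPM + 1), CLDN7, a tight junction protein, with 0.82, and RAB1B, a GTPase of transport from the endoplasmic reticulum to the Golgi, with 0.81. Without the fixed Triton cells and after subtracting the mean of each group and set, r was 0.05, 0.25 and -0.16 over 38 cells. The likeness was thus one of groups and sets, not of single cells within them. RAB1B was 117 CPM in set 2 and 32.6 CPM in set 1 of the live Triton cells, and CD24, a GPI-anchored surface protein, was 2602 against 905 CPM. The cells of the sets did not overlap for either gene, as for 0.85% of genes with set 2 higher. In FRISCR cells PHF5A was also higher in set 2, at 155 against 66.7 CPM (live) and 180 against 60.0 CPM (fixed). RAB1B was closer between sets there, at 147 against 128 CPM and 101 against 102 CPM. CLDN7 was 241 against 126 CPM and 122 against 116 CPM. CD24 was 3122 against 2665 CPM and 3059 against 2599 CPM, and had 1244 CPM in fixed Triton cells.

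**Figure D2:**
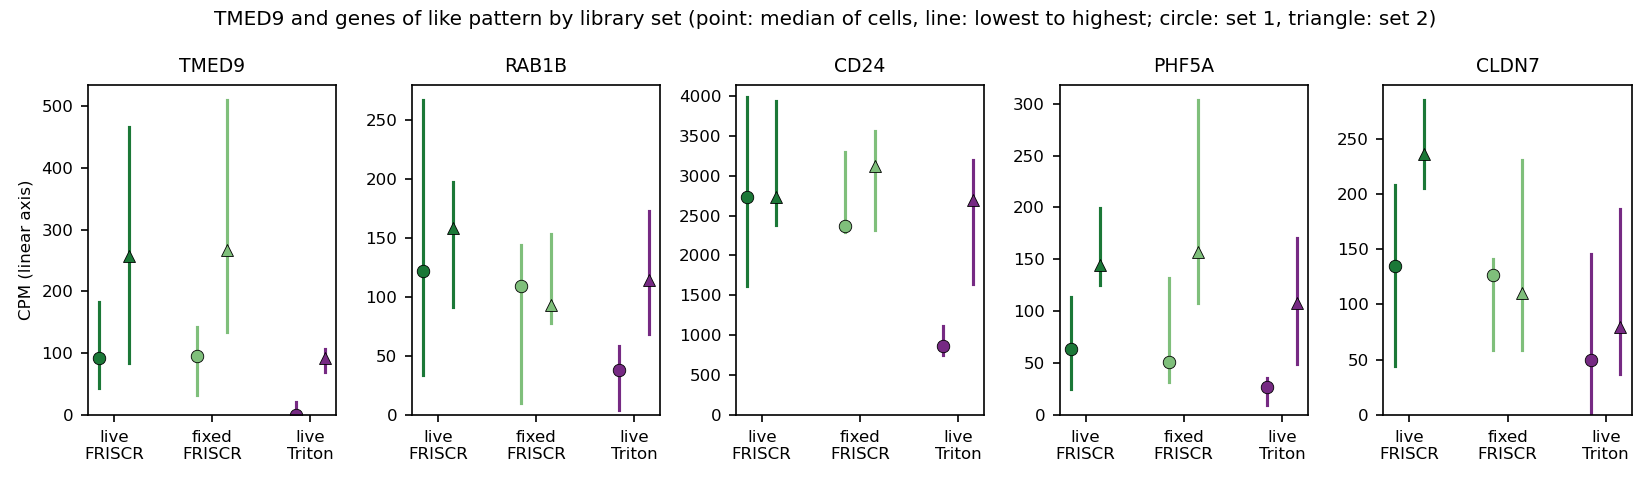
Levels of TMED9, of PHF5A, CLDN7 and RAB1B, the genes most like it over 45 cells, and of CD24, chosen after its values were seen. Values are in CPM (linear axes) by group and library set. The median of cells is a point (circle for set 1, triangle for set 2) and the lowest to highest cell is a line. In live Triton cells TMED9, RAB1B, CD24 and PHF5A have set ranges that do not overlap, and CLDN7 ranges overlap.

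By summed CPM, most TMED genes were lower in fixed than in live cells lysed in Triton. Of the 8 genes, 6 were more than 2-fold lower and 1 was more than 2-fold higher, where 58.5% and 12.4% of 7256 genes were. The share of members was therefore near that of the table as a whole, and the median log2 ratio was -2.13 for the 8 genes against -1.50 for all genes. Fewer molecules per cell and less recovery of them cannot be told apart in these counts. With all 4 groups scaled by summed totals, a few abundant rows also weigh on the ratios: without 49 abundant and ribosomal RNA rows in the totals, the medians were -1.51 and -0.89. Scaling by TMM or by the median of ratios shifted every log2 ratio by 1.02 or 1.12, after which 4 members were more than 2-fold lower, 2 were more than 2-fold higher (TMED3 and TMED4), and TMED2 and TMED10 lay within 2-fold.

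TMED2 was found in each of the 7 fixed Triton cells, at 60.9, 55.8, 245, 107, 117, 90.1 and 316 CPM. The live Triton cells ranged from 364 to 803 CPM (median 543), above all 7, and the summed level was 3.89-fold lower in fixed cells (3.76 to 4.02). TMED5 was the other member whose ranges did not overlap, with 8 counts over the 7 fixed cells and a range of 3.22 to 145 CPM in live cells. A lower level in every fixed cell than in every live cell was seen for 10.3% of genes. The TMED5 ratio was 159-fold lower (80.5 to 368).

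TMED10 was divided among the fixed Triton cells, which had 0.232, 1.05, 19.8, 289, 1.34, 3.71 and 398 CPM. The values 289 and 398 CPM lay inside the live range of 170 to 531 CPM (median 413) and the other 5 lay below it. The summed level was 103 against 369 CPM (log2 ratio -1.84), and it was -2.87 without fixed Triton replicate 7, the cell with 398 CPM. TMED9 had 25 counts in 1 of the 7 cells (7.38 CPM) and was at 0 in the other 6. Because 3 of the live Triton cells were also at 0, the TMED9 ranges overlapped, and the log2 ratio was -5.87, or -8.75 without replicate 3, the cell with the 25 counts. In set 1 both groups were below the filter (1.52 against 4.81 CPM), and in set 2 the level was at least 370.5-fold lower in fixed cells.

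TMED1, TMED7 and TMED4 were found in few cells of this group. TMED1 was at 0 in 4 of the 7 cells and at 96.9 CPM in replicate 6, and its log2 ratio to live cells of -2.29 became -7.18 without that cell. TMED4 was at 0 in 5 cells and at 180 and 47.0 CPM in the others, so its ratio of 0.14 became -2.16 without replicate 2. TMED7 was at 0 in 4 cells and at 59.3, 31.5 and 1.37 CPM in the others, with a log2 ratio of -2.91 that became -4.07 without replicate 3. Replicate 6, a cell at 0 for TMED7, had 343 counts on the overlapping read-through gene TMED7-TICAM2, against 333 TMED7 counts over the whole group.

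TMED3, a gamma member, was the one higher gene. Its 7 fixed Triton cells had 551, 0, 64.9, 230, 286, 0 and 0.228 CPM, and the live Triton cells ranged from 25.3 to 120 CPM (median 65.8). Of the fixed cells, 3 were above the live range and 3 were below it. The log2 ratio of 1.28 became 0.46 without replicate 1, and it was -0.02 by the median of single cells plus 1 CPM, so a higher TMED3 level rests on few cells. By mean TPM the ratio did not pass 2-fold.

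Between the fixed groups, FRISCR cells had more than 2-fold higher levels for 6 of 8 members and more than 2-fold lower levels for 0, where 59.8% and 10.6% of 7272 genes were higher and lower. The median log2 ratio was 2.02 for the members and 1.53 for all genes. TMED9 was the member whose fixed FRISCR cells, at 32.6 to 509 CPM (median 138), all lay above the fixed Triton cells, as for 4.95% of genes. Its summed ratio was 221 (150 to 342). TMED2 was 4.39-fold higher (4.25 to 4.54), TMED10 3.09-fold (2.98 to 3.22), TMED7 8.54-fold (7.65 to 9.57) and TMED1 3.74-fold (3.39 to 4.13), with overlapping cells. TMED3 and TMED4 had log2 ratios of -0.63 and -0.62. Both rest on single fixed Triton cells: TMED3 became 0.19 without replicate 1 and TMED4 became 1.68 without replicate 2. TMED1 and TMED9 went from log2 ratios of 1.90 and 7.79 to 6.79 without replicate 6 and 10.7 without replicate 3, TMED7 from 3.09 to 4.25 without replicate 3, TMED10 from 1.63 to 2.65 without replicate 7 and TMED5 from 6.77 to 7.93 without replicate 2. TMM and median-of-ratios scaling brought TMED1 and TMED10 inside 2-fold and put TMED3 and TMED4 more than 2-fold lower with FRISCR, and TMED2 was inside 2-fold by the median of ratios (log2 ratio 0.94) but not by TMM (1.05). This comparison and that of fixed with live Triton cells share the fixed Triton cells.

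**Figure D3:**
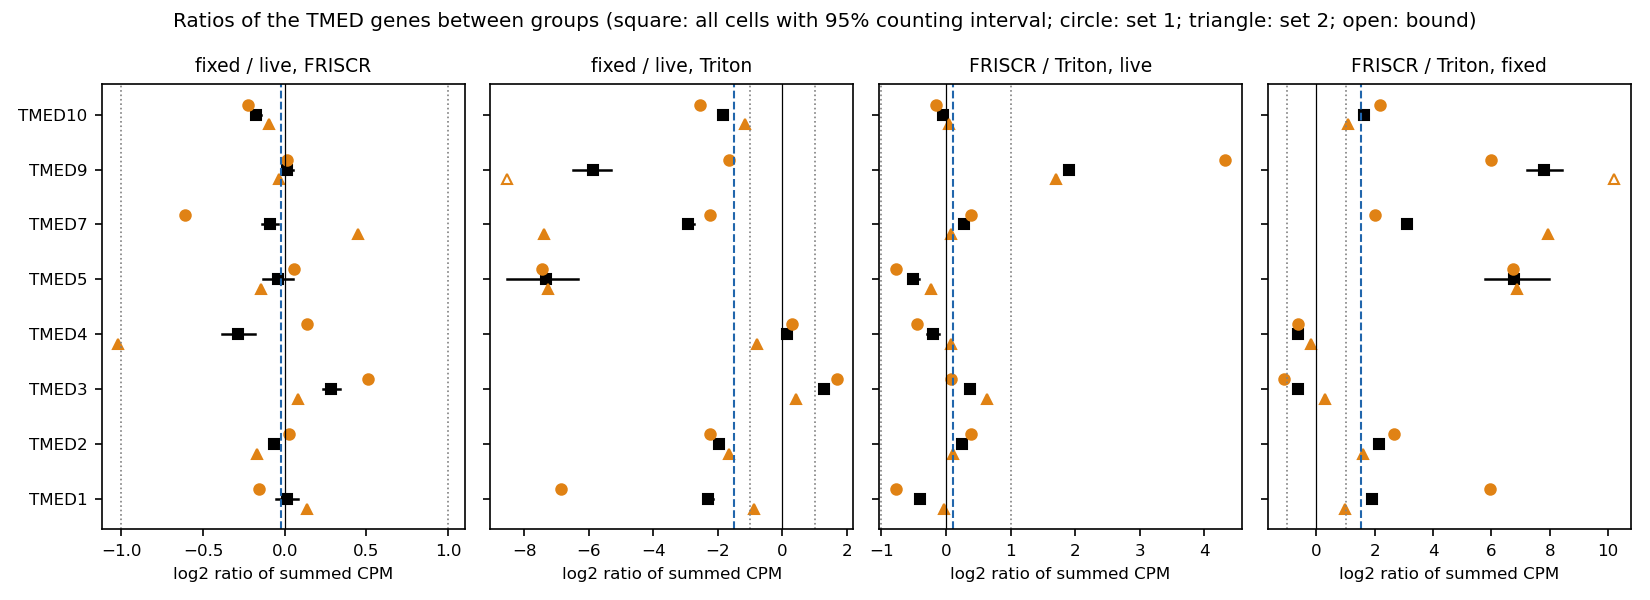
Log2 ratios of summed CPM for the 8 TMED genes in 4 comparisons, with squares for all cells (bars are 95% counting intervals), circles for library set 1, triangles for set 2, open symbols for a bound against 0 counts, dotted lines at 2-fold and a dashed line at the median of all genes. Over all cells the members lie within 2-fold between fixed and live FRISCR cells, with TMED4 of set 2 at -1.02, TMED9 stands alone past 2-fold between live groups, and the ranges widen in both comparisons with fixed Triton cells.

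Detection at equal depth followed the same division. At 1000000 counts per cell all 8 members were found in 10 of 15 live FRISCR cells, 6 of 12 fixed FRISCR cells, 8 of 11 live Triton cells and 0 of 7 fixed Triton cells. The median number of members per cell was 8, 7.5, 8 and 4. A median of 42.9% of fixed Triton cells had a count for a member, and the median over the 7256 genes of that comparison was also 42.9%. In fixed FRISCR cells the medians were 95.8% for the members and 91.7% for all genes. TMED5, the least abundant per length, was found in 12 of 15, 8 of 12, 11 of 11 and 1 of 7 cells.

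**Figure D4:**
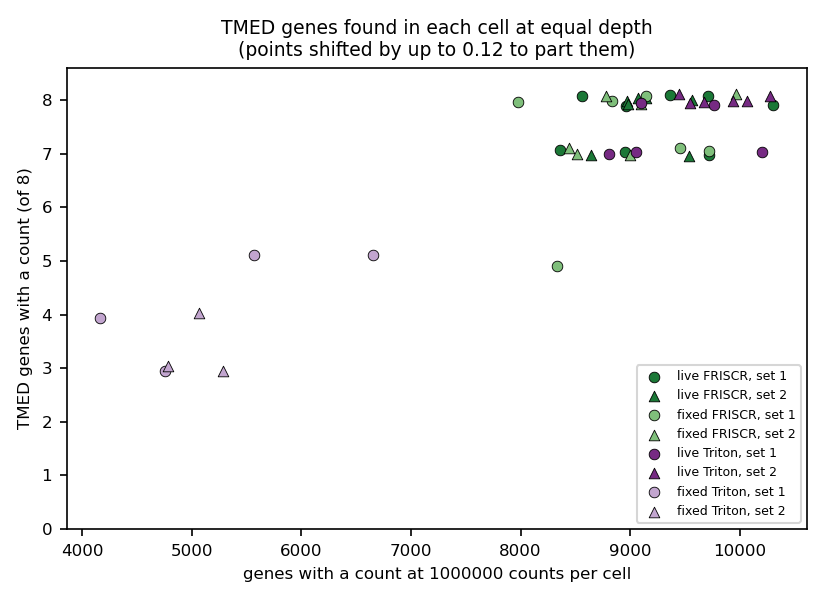
Number of the 8 TMED genes with a count in each cell (points shifted by up to 0.12) against the number of genes with a count, both at 1000000 counts per cell, with groups by colour and library sets by symbol. The 7 fixed Triton cells hold 3 to 5 members and 4166 to 6650 genes, and the other cells hold 7 or 8 members apart from 1 fixed FRISCR cell with 5.

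TMED2 and TMED10 varied together from cell to cell more than any other pair of members. Over 45 cells their Pearson r of log2(CPM + 1) was 0.83, the highest of 28 pairs, whose median was 0.36. That value includes the distance of the fixed Triton cells from the rest, which gave all 28 pairs a positive r. Over the other 38 cells, with the mean of each group and library set subtracted, r was 0.60 for TMED2 with TMED10. The 28 pairs ranged from -0.38 (TMED1 with TMED2) to 0.60 with a median of -0.03 and 13 positive. TMED2 and TMED10 also had the highest summed CPM of the members in each group used, at 635 and 358 in live FRISCR cells. Several other members had cells at 0, such as TMED9 in 3 of 11 live Triton cells. The part of level and of cells at 0 in this ranking of pairs was not tested. TMED3 and TMED7, whose promoters also hold ACGTGG, had r of 0.19 and -0.19 with TMED2. Their r was -0.02 and -0.32 with TMED10, and -0.04 with each other.

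Among 8708 other genes, TMED2 ranked first in likeness to TMED10 by that measure, ahead of SLC35F2 at 0.58. TMED10 ranked sixth in likeness to TMED2, behind NUDT16L1 at 0.68, AGPAT5 at 0.65, ABL2 at 0.62, NME1 at 0.61 and NASP at 0.60. The first place was not fixed: TMED2 ranked 2 by Spearman correlation and 10 on unlogged CPM, and between 1 and 5 when each of the 38 cells was left out, with r from 0.56 to 0.66. TMED10 ranked between 3 and 18 for TMED2 when each cell was left out. Over all 45 cells TMED2 ranked 57 for TMED10, and 171 after centring. TMED10 ranked 19 and 25 for TMED2 by these measures. Within whole groups the uncentred r of TMED2 with TMED10 was 0.59 in live FRISCR and 0.65 in fixed FRISCR cells, the highest of 28 pairs in each. In live Triton cells it was 0.34, where the highest was 0.52 for TMED1 with TMED7. In fixed Triton cells it was 0.704, beside 0.708 for TMED7 with TMED9. Within single sets the pair had 0.75 and 0.22 in live FRISCR cells and 0.28 and 0.91 in fixed FRISCR cells, for sets 1 and 2. In live Triton cells it had -0.26 and 0.75, and each of these sets held 5 to 8 cells. The points share a library preparation and a depth, the measure without fixed Triton cells was chosen after the data had been seen, and no test was made.

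**Figure D5:**
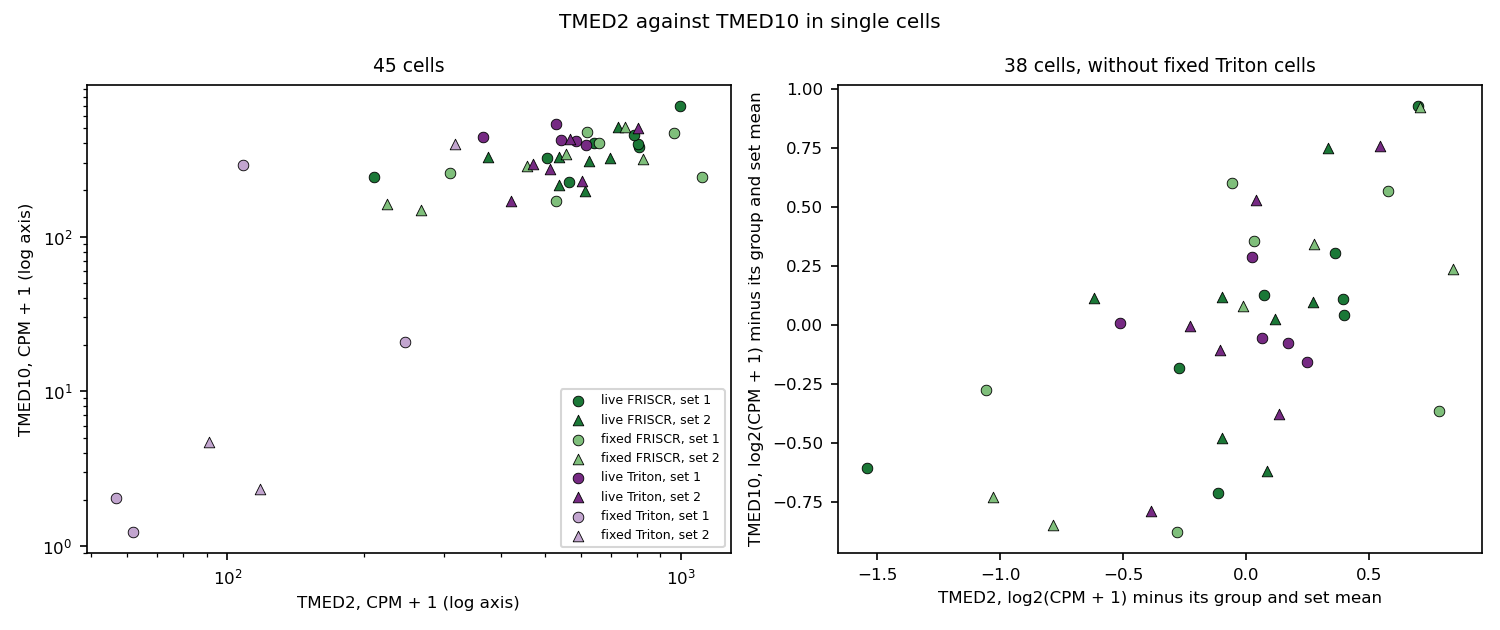
TMED10 against TMED2 in 45 cells as CPM plus 1 (log axes, left) and in 38 cells as log2(CPM + 1) with group and set means subtracted (right). The 5 fixed Triton cells below 20 CPM lie apart at low TMED10, and r is 0.83 on the left and 0.60 on the right.

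The gene nearest to each other member over 45 cells had a lower r without the fixed Triton cells, to a varying degree. TMED3 was most like YIF1A, a Golgi membrane protein of the same route, at r = 0.87, which became 0.42 without those cells. TMED1 was most like SCNM1 at 0.80 and 0.51, TMED4 most like AFF1 at 0.81 and 0.57, TMED5 most like RTKN at 0.70 and 0.57, and TMED7 most like TACC3 at 0.76 and 0.44. The second gene for TMED7, PSMD5, a proteasome assembly factor, had 0.75 and 0.67. The nearest gene to TMED2, SRSF1, had 0.87 and 0.34, and the nearest to TMED10, ANP32E, had 0.94 and 0.31. On that same uncentred measure TMED2 with TMED10 had 0.83 and 0.55. The genes named here were picked as the nearest among 8708, and the pair as the highest of 28. Their values therefore cannot show whether the pair was set apart from these genes.

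The wider machinery of the route was read from lists that were likewise drawn up with earlier results known. Between fixed and live FRISCR cells, 0 of 14 COPII coat genes past the filter, 0 of 14 other cargo receptors and 0 of 19 SNARE, Rab and tether genes differed more than 2-fold. Over all genes 3.34% were higher and 7.69% lower, so lists of this size would hold few such genes at that share. Of 15 COPI genes, ARFGAP3 was higher (log2 ratio 1.33) and GBF1, an exchange factor for ARF proteins, was lower (-1.81). Of 11 GPI-anchored proteins, BST2 was higher (1.04) and PRNP lower (-1.51), and PGAP1, which remodels GPI anchors, was lower (-1.72) of 2 remodelling genes.

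Between live groups few of these genes joined TMED9. The genes more than 2-fold higher with FRISCR were ARFGAP1, which acts on ARF proteins in the COPI cycle (log2 ratio 1.71), KDELR1, a receptor that returns proteins to the endoplasmic reticulum (1.15), and PGAP1 (1.03). None of the 14 COPII genes, 19 SNARE, Rab and tether genes or 10 GPI-anchored proteins past the filter did so with both sets pooled, where 6.57% of all genes were higher and 3.14% lower, and none of the lists then held a gene more than 2-fold lower. In set 2 alone, 4 of 14 COPII genes, 1 of 14 other cargo receptors and 1 of 19 SNARE, Rab and tether genes were more than 2-fold lower, where 7.13% of genes were. In set 1 alone, 2 of 14 COPII genes, 3 of 14 COPI genes, 1 of 12 other cargo receptors, 2 of 19 SNARE, Rab and tether genes and 3 of 10 GPI-anchored proteins were more than 2-fold higher, where 13.3% of genes were, and 1 SNARE, Rab or tether gene was more than 2-fold lower, where 9.52% were. Among the most abundant genes of the lists, SAR1A, the COPII GTPase, was 270 against 285 CPM, ARF1 was 429 against 430 CPM and SURF4, another cargo receptor, was 245 against 192 CPM.

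In fixed against live Triton cells, 11 of 13 COPII genes, 11 of 14 COPI genes, 8 of 13 other cargo receptors, 14 of 18 SNARE, Rab and tether genes and 8 of 10 GPI-anchored proteins were more than 2-fold lower, where 58.5% of all genes were. The median log2 ratios were -3.82, -1.89, -1.37, -3.62 and -1.67, beside -2.13 for the TMED genes. RAB1A was 29.5 against 294 CPM and LMAN2, a lectin cargo receptor, was 19.8 against 203 CPM. SAR1A was 363 against 285 CPM, and the cargo receptor CNIH4 (209 against 128 CPM) was also not lower. BCAP29 (60.8 against 28.3 CPM) was the 1 of 13 other cargo receptors more than 2-fold higher. So was 1 of 14 COPI genes, and 0 in the COPII, SNARE and GPI-anchored lists, where 12.4% of all genes were. In fixed FRISCR against fixed Triton cells the same lists held 12 of 14, 11 of 15, 9 of 14, 15 of 19 and 9 of 10 genes more than 2-fold higher, where 59.8% of all genes were.

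Some TMED rows have an overlapping gene or a near copy, between which the authors' counting could split reads. TMED7 overlaps the read-through gene TMED7-TICAM2, which had 345 counts in a fixed FRISCR cell and 343 counts in a fixed Triton cell where TMED7 was at 0, and 145 and 48 counts in 2 live FRISCR cells where TMED7 had 552 and 162. TMED7 levels in those cells are uncertain, and so are the TMED7 ratios of the groups that hold them. TMED10P1, a processed copy of TMED10, had 21, 81, 55 and 1 counts in the 4 groups against 26035, 17417, 21329 and 2994 for TMED10. TMED6 and TMED11P had 0 counts in all 45 cells, and TMED8 had 14, 32, 11 and 0.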

How the data were processed

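The authors deposited a table of estimated counts (expected counts) and a table of TPM for 45 single cells and 23045 gene rows, with GRCh37 (hg19) as the build in the submitters' processing notes. The quantifier, like the aligner and gene models, is not given in the sources used here. The sample group in the labels gave each cell's group, and the code in its title gave the library set. Titles name the preparations otherwise, with PLRC for the FRISCR groups and RLT for the Triton groups, and the sample group was followed. Labels record Smart-seq2 and Nextera XT, and their extraction text describes cortical tissue.

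Counts were rounded to whole numbers (40.3% of nonzero values were not whole), summed per group and divided by summed totals with pandas 2.3.3. A gene entered a comparison with at least 20 CPM in either group, and a bound against 0 counts used a floor of 3 counts over the group. Levels between genes were compared in TPM, which divides by length. No molecular identifiers were used, so the intervals from scipy 1.17.1 treat each read as a separate count. They cover the counting error of reads only, not that of molecules and not the spread between cells. Cells were thinned to 1000000 counts for detection. Likeness used the 8709 genes whose mean reached 10 CPM. GC content came from GENCODE 29 by symbol and covered 89.7% or more of the genes in the comparisons cited. Scaling alternatives used edgeR 4.0.16 (TMM) and DESeq2 1.42.0 (median of ratios) on summed counts, factors only. The ratio script was checked on simulated data.

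Named genes were all TMED rows, the most abundant and most extreme genes of each pathway list per comparison, and the nearest genes in pattern. SLC35F2, the neighbours of TMED2 and the set values of CD24 were chosen after their values were seen. The members and lists were chosen with earlier results of these data known.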

Additional observations from a re-analysis of the deposited data

Results flagged for a closer look

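In fixed Triton cells, 3 of the 8 TMED genes had 1 cell far from the other 6, in 8 such checks. The rate of about 1 in 20 that chance gives holds for continuous values and does not apply here, since 4 of the 7 cells were at 0 for TMED1, 5 for TMED4 and 6 for TMED9. TMED1 was at 96.9 CPM in replicate 6, TMED4 at 180 CPM in replicate 2 and TMED9 at 7.38 CPM in replicate 3. The other groups have more than 10 cells and were not checked in this way.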

How the results depend on the processing

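With the median of single-cell CPM plus 1, the median member log2 ratio was -5.56 for fixed over live Triton and 5.28 for FRISCR over Triton in fixed cells, 0 members passed 2-fold between live groups, and TMED3 in fixed over live Triton turned to -0.0186. TMM and median-of-ratios scaling shifted fixed over live Triton by 1.02 and 1.12 and gave medians of -1.11 and -1.001 there. They gave 0.93 and 0.82 for FRISCR over Triton in fixed cells, and 0.0158 and 0.00727 in live cells. Under both, TMED4 and TMED3 were more than 2-fold higher in fixed than in live Triton cells. Without the abundant rows the medians were -1.51 (fixed over live Triton), 1.31 (fixed groups) and -0.00247 (live groups). Mean TPM gave -0.12 for fixed over live FRISCR and -2.80 for Triton. Library set 1 gave 0.0186 for fixed over live FRISCR and -0.0376 between live groups. Set 2 gave -1.40 for fixed over live Triton and 1 member past 2-fold, TMED4, in FRISCR. A filter of 50 CPM gave 0.26 between live groups. For TMED2 with TMED10, Spearman gave 0.63, and Pearson without fixed Triton cells gave 0.55, or 0.60 centred.

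Leaving out 1 cell at a time, the median ranged from -0.15 to 0.0461 (fixed over live FRISCR), -2.52 to -1.94 (Triton), 0.0117 to 0.13 (live groups) and 1.83 to 2.58 (fixed groups), and members past 2-fold numbered 0 to 0, 6 to 8, 1 to 1 and 6 to 7. Ratios of single members moved under 111 of 1072 alternatives. Their sign changed under 66, of which 52 had a ratio within 0.1 of 0; the other 14 were TMED4 in each comparison and TMED3 in both with fixed Triton cells. No paired analysis was possible because replicate numbers only follow the order of deposit. Values within each library set stand in its place.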
